A study of Mus musculus with 2 samples.

Results

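The cells described here are 126 spiral ganglion neurons from mice that carried a floxed *Runx1* allele, chosen because each held *Lypd1* RNA at 1000 CPM or more (its UMIs, or unique molecular identifiers, scaled to a total of 1e+06 per cell). They make up 31.0% of the 407 cells of the library labelled iCKO (exact 95% binomial interval 26.5 to 35.7), and the study holds 869 cells in all. The iCKO mice were Runx1-CreER/Runx1F; Ai14/+, and the control mice, labelled iCON, were Runx1-CreER/+; Ai14/+. Both groups therefore carried a tamoxifen-inducible Cre recombinase driven by *Runx1* and the Ai14 tdTomato reporter, and both received tamoxifen on postnatal day 1. Cochleae of both sexes were dissociated with enzymes on postnatal days 27 to 29, sorted for tdTomato and profiled as single cells with a 3′ droplet assay, with 1 library per genotype. The driver limits both recombination and the reporter to cells that express *Runx1*, and the number of animals behind each library is not given in the sources used here. Every difference below is therefore a difference between 2 libraries with no replicate check. Cells of 1 library are not replicates of its genotype, no test was run, and standard deviations and ranges over cells describe cells only.

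Spiral ganglion neurons carry sound information from the hair cells of the cochlea to the brainstem. Most are type I neurons, which contact inner hair cells and fall into the subtypes Ia, Ib and Ic. Ia neurons are known for high *Calb2* (calretinin, a calcium buffer), Ib neurons for *Calb1* (calbindin), and Ic neurons for *Lypd1* (a Ly6-family protein anchored in the membrane that modulates nicotinic receptors), *Grm8* (a metabotropic glutamate receptor) and *Pou4f1* (a homeodomain transcription factor). RUNX1 is a transcription factor that binds DNA with its partner CBFB. It is known in other sensory ganglia for its part in the choice between neuron subtypes.

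The 4 sets of cells are compared, and *Lypd1* and *Calb2* alone define them. Lypd1-high cells had *Lypd1* of at least 1000 CPM, and Calb2-high cells had *Lypd1* below 100 CPM together with *Calb2* of at least 10000 CPM. The iCKO Lypd1-high cells (126) were compared with the iCON Lypd1-high cells (180, or 39.0% of that library, interval 34.5 to 43.6). The iCON Calb2-high cells (85, or 18.4%) served as the level of the other control type, and the iCKO Calb2-high cells (201, or 49.4%) showed which differences the libraries had outside the Lypd1-high cells. The threshold fell in a sparse range of values. In iCKO the 3 cells just inside it were at 1035, 1084 and 1148 CPM and the 3 just outside were at 927, 897 and 831, while in iCON they were at 1053, 1128 and 1289 inside and 762, 742 and 645 outside. Between 100 and 1000 CPM lay 20 iCKO cells (4.91%) and 26 iCON cells (5.63%).

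The libraries differed in ways that bear on every value below. Median depth was 33944.5 UMIs in the iCKO Lypd1-high cells (range 19196 to 60518) and 50681 in the iCON Lypd1-high cells, with 4222267 and 8837582 UMIs in total. *Xist* without Y-linked RNA was found in 103 of the iCKO cells (81.7%) and 97 of the iCON cells (53.9%). The summed RNA of a short list of myelin genes had a median of 2711 CPM in iCKO and 4228 in iCON. The parts of depth, sex make-up and myelin RNA in the differences between libraries were not tested. Ratios in cells divided by sex-linked RNA are given beside many of the named genes, and for *Calb2* and *Mdga1* in cells divided by myelin RNA too. No cell barcode was shared between the libraries.

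*Runx1* itself, the targeted gene, was no lower among cells of the library labelled iCKO. In the iCKO Lypd1-high cells it ran from 0 through a median of 137 to 365 CPM, and in the iCON Lypd1-high cells from 0 through 101 to 330. The means were 144 and 112 CPM, a log2 ratio of 0.36, and the summed UMIs gave 0.37 with an exact 95% counting interval of 0.22 to 0.52. After thinning of each cell to 20000 UMIs, 92.8% of the iCKO and 84.8% of the iCON Lypd1-high cells held a *Runx1* UMI, against 21.7% of the iCON Calb2-high cells. Before thinning these shares were 97.6%, 97.8% and 43.5%. Reads near the 3′ end cannot distinguish a full-length *Runx1* transcript from one made after exon loss, so no direction here rests on a loss of *Runx1* RNA. In the iCKO Calb2-high cells *Runx1* stood at 92.9 CPM, against 15.9 in their iCON counterparts. Only 3 of the 126 cells lacked a *Runx1* UMI, too few to describe apart.

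The name of the cells was checked against their markers. The marker genes of Ic neurons were at nearly the same level in the Lypd1-high cells of both libraries. *Grm8* ran from 0 through a median of 84.1 to 260.5 CPM over the iCKO Lypd1-high cells and from 0 through 85.6 to 278.6 over the iCON ones, with means of 87.7 and 96.6 (log2 ratio -0.13). The iCON Calb2-high cells had a mean of 1.07. *Pou4f1* had means of 108 and 95.7 CPM (0.16) and 0.53 in the iCON Calb2-high cells, and *Ntng1*, a membrane-anchored axon guidance protein of the netrin family, had 208 and 225 (-0.11) against 12.7. The 2 Lypd1-high sets overlap across almost their whole range for each of these genes, and both stand far from the Calb2-high set. A *Grm8* UMI was found in 91.3% of the iCKO Lypd1-high cells and in 3.48% of the iCKO Calb2-high cells, at median depths of 33944.5 and 34525 UMIs. *Lypd1*, which chose the cells, had means of 3236 ± 1102 CPM (SD over 126 cells) in iCKO and 4058 ± 1032 (SD over 180 cells) in iCON.

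*Calb2* was several times higher in the iCKO Lypd1-high cells than in their control counterparts. It ran from 0 through a median of 4323 to 19210 CPM in iCKO, and from 0 through 181 to 16909 in iCON. In the iCON Calb2-high cells, chosen by this gene, it ran from 10563 through 21002 to 33740. The iCKO Lypd1-high cells therefore fill the range between these 2 control sets, and the sets overlap. That range also held 139 iCON cells of neither set, with *Lypd1* below 100 CPM and *Calb2* between 1000 and 10000 CPM. Of the 126 iCKO Lypd1-high cells, 72 (57.1%) lay above 3062 CPM, the 95th percentile of the iCON Lypd1-high cells. The means were 4772 ± 4248 and 739 ± 1627 CPM, a log2 ratio of 2.68, with a counting interval of 2.50 to 2.58 around 2.54 for the summed UMIs. At least 1000 CPM was reached by 76.2% of the iCKO and 22.2% of the iCON Lypd1-high cells, at least 5000 by 40.5% and 1.67%, and at least 10000 by 11.1% and 0.556%. The latter is 1 iCON cell, at 16909 CPM, which was called a doublet, and without it the iCON maximum was 7468.

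The higher *Calb2* level held within each division of the cells that was examined. The log2 ratio was 2.82 in cells with *Xist* but without Y-linked RNA, 2.16 in those with Y-linked RNA alone (20 iCKO and 79 iCON cells), 2.77 in cells with myelin RNA of at least 100 CPM and 2.26 in cells below it. Of the 126 cells, 4 held no *Calb2* UMI and 14 (11.1%) were below 100 CPM, and the part of RNA shared between droplets was not tested. The 14 cells with *Calb2* of at least 10000 CPM had a median depth of 35638 UMIs, against 33341.5 for the other 112, and none of the 126 was called a doublet. Their mean *Grm8* was 85.6 CPM, against 87.9 in the other 112, and their *Lypd1* had a median of 2011 CPM against 3238.

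**Figure D1:**
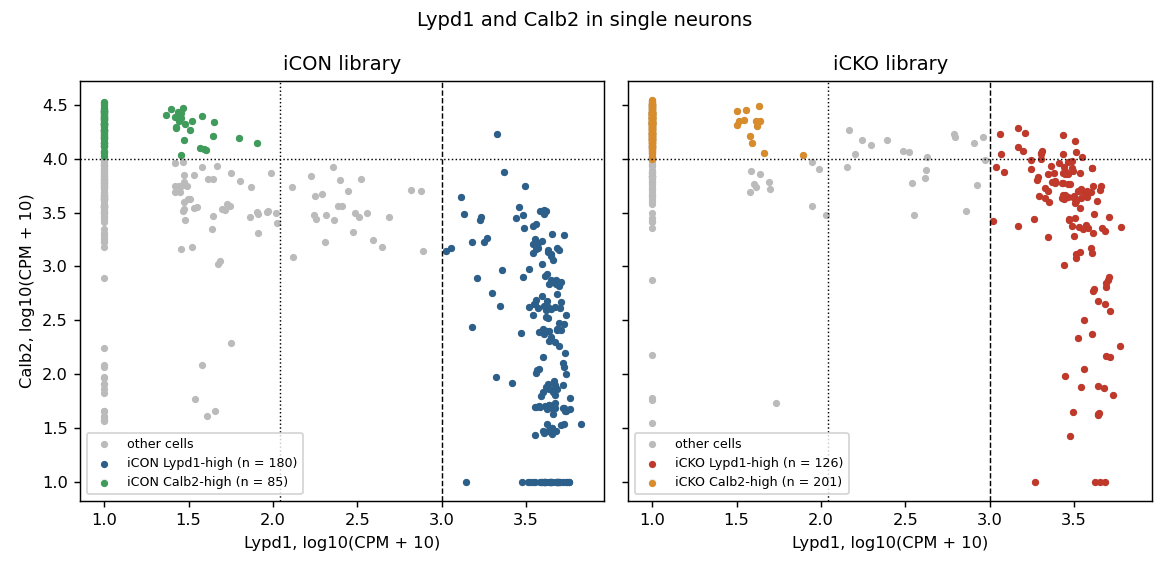
*Lypd1* (x axis) against *Calb2* (y axis) in each cell, both as log10(CPM + 10), with 1 panel per library. Points are cells, the dashed line marks 1000 CPM of *Lypd1*, and the dotted lines mark 100 CPM of *Lypd1* and 10000 CPM of *Calb2*. The 126 iCKO Lypd1-high cells reach up to 19210 CPM of *Calb2* with a median of 4323, and the 180 iCON Lypd1-high cells have a median of 181.

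Few genes differed as much as *Calb2*. Across the 3791 genes with a mean of at least 50 CPM and a UMI in at least 25% of cells in either Lypd1-high set, the median log2 ratio was 0.01 and the central 95% lay between -0.51 and 0.45. Ratios were taken on the log2(mean CPM + 5) scale, which understates differences of low genes. At least 2-fold higher in iCKO were 11 genes (0.29% of those compared), and at least 2-fold lower were 6 (0.158%). At 1.5-fold the counts were 45 (1.19%) and 61 (1.61%).

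The highest ratio belonged to *B3gat1*, which encodes a glucuronyltransferase that makes the HNK-1 carbohydrate of neural cell adhesion molecules. It ran from 0 through a median of 76.8 to 327 CPM in the iCKO Lypd1-high cells, while the median iCON Lypd1-high cell held none and the highest held 108. Means were 86.9 and 7.02 CPM (log2 ratio 2.93), against 147 in the iCON Calb2-high cells. A UMI of *B3gat1* was found in 70.6% of iCKO and 21.1% of iCON Lypd1-high cells, and after thinning in 65.6% and 15.2%. The ratio was 3.18 in *Xist* cells and 2.47 in cells with Y-linked RNA.

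*Sh3bgr*, which encodes a small SH3-binding protein, was the next highest at 2.81. It ran from 0 through a median of 159 to 469 CPM in iCKO and from 0 through 0 to 281 in iCON. Its means were 168 and 19.7 CPM, and the iCON Calb2-high cells had 94.7, so the iCKO Lypd1-high cells stood above both control sets. The gene (GRCm38 chr16:96200450-96228935, plus strand) lies 3.37 Mb from *Runx1* (chr16:92601466-92826149, minus strand), on the chromosome that carries the floxed allele. Of 20 genes compared within 5 Mb of *Runx1*, *Runx1* included, *Sh3bgr* alone passed 2-fold, and the median ratio of the 20 was 0.12. In the iCKO Calb2-high cells it was 138 CPM, a ratio of 0.52 to their iCON counterparts. The ratio in Lypd1-high cells was 2.76 for *Xist* cells and 2.88 for cells with Y-linked RNA.

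*Mdga1* encodes an immunoglobulin-family protein of the synaptic membrane that binds neuroligins. Every Lypd1-high cell of both libraries held a UMI of it. Its level ran from 33.7 through a median of 584 to 1230 CPM in iCKO and from 18.8 through 192 to 925 in iCON, with 914 CPM as the mean of the iCON Calb2-high cells. The means of 580 and 210 CPM gave a log2 ratio of 1.44 (counting interval of the summed UMIs 1.37 to 1.54). In cells with Y-linked RNA the ratio was 1.16, and in cells with low myelin RNA 1.44.

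Further genes were past 2-fold. *Car12* (a membrane carbonic anhydrase, 70.6 against 26.8 CPM, log2 ratio 1.25) and *Car2* (the cytosolic carbonic anhydrase, 55.9 against 24.1, 1.07) were both higher, as was *Pygl* (a glycogen phosphorylase, 57.7 against 24.99, 1.06). *Col27a1*, a fibrillar collagen, had 121 against 40.3 CPM (1.47), a ratio that was 2.22 in *Xist* cells and 0.58 in cells with Y-linked RNA. *Tmem229b*, a membrane protein gene, had 93.2 against 40.4 CPM (1.11). In cells with Y-linked RNA, *Car2* (0.59), *Pygl* (0.55) and *Tmem229b* (0.70) were under 2-fold as well, against 1.21, 1.35 and 1.21 in *Xist* cells, and *Car12* was at 1.20 and 1.27.

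*Eid2*, which encodes an inhibitor of differentiation that acts on transcription, and the gene listed as *1700026D08Rik* were higher in both cell types of the iCKO library. *Eid2* stood at 54.2 against 18.8 CPM in the Lypd1-high cells (1.32) and at 47.4 against 16.3 in the Calb2-high cells (1.30). *1700026D08Rik* had log2 ratios of 2.02 and 1.30, the former being 2.63 in *Xist* cells and 1.15 in cells with Y-linked RNA. Of the 15 genes with the highest ratios, these were the only 2 past 2-fold in the Calb2-high cells as well, while 14 were above 0 there. The 15 were chosen for their ratio in the Lypd1-high cells, so a smaller ratio elsewhere follows in part from the choice, and that of *Calb2* in Calb2-high cells is fixed by their threshold.

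**Figure D2:**
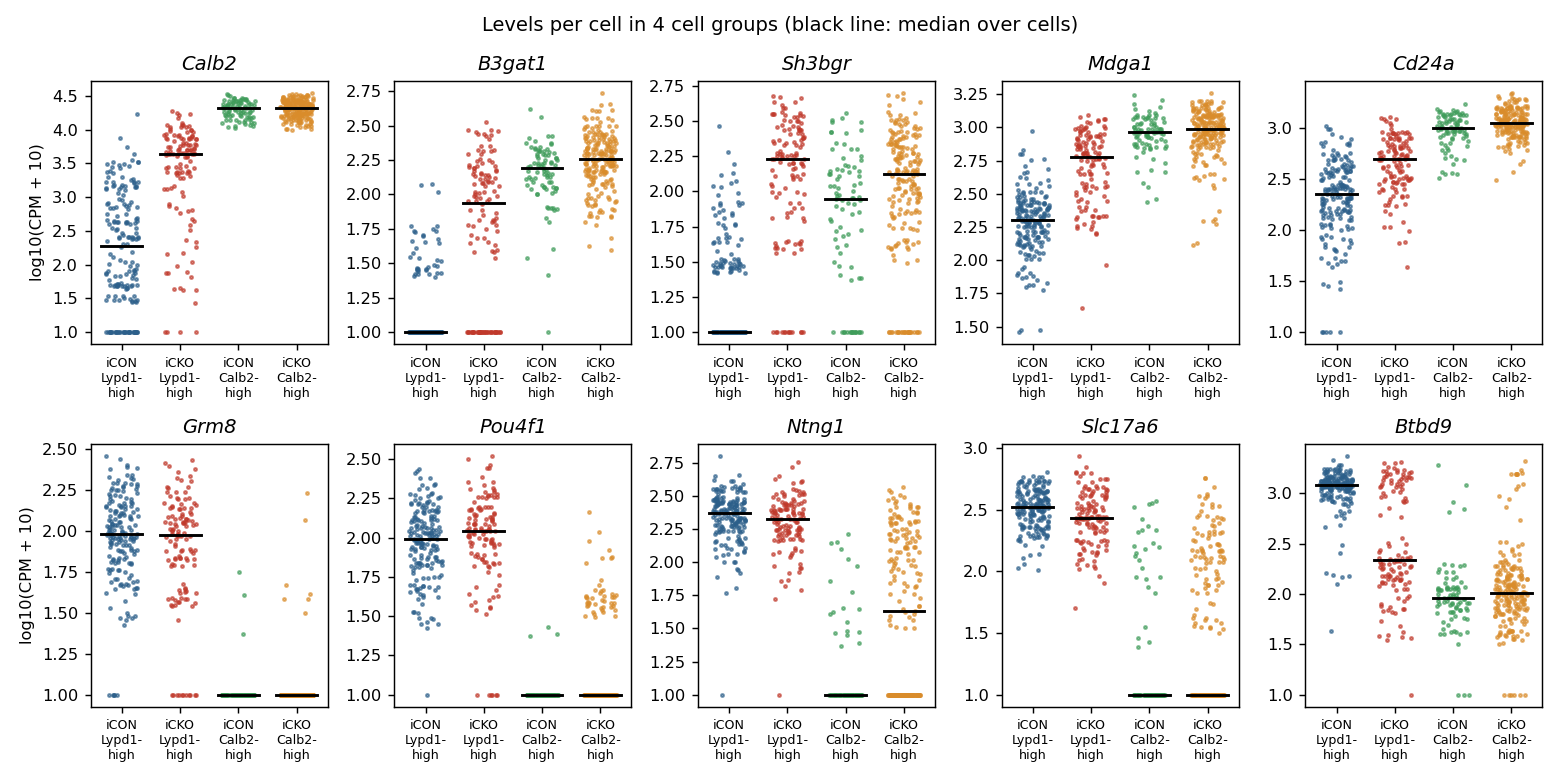
Level of single genes, as log10(CPM + 10) on the y axis, in each cell of the 4 cell sets on the x axis, with 1 panel per gene. Points are cells and black lines are medians over cells. *B3gat1*, *Mdga1* and *Calb2* lie between the control sets in the iCKO Lypd1-high cells, while *Grm8* and *Pou4f1* lie with the iCON Lypd1-high cells.

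The genes with the lowest ratios are described next. *Gm1821* had the lowest, -3.84, with 64.4 against 987 CPM in Lypd1-high cells and 34.2 against 866 in Calb2-high cells. It is a pseudogene of the ubiquitin family, so its reads may be shared with near-identical copies, and it separated the libraries rather than the cell types: 7.14% of iCKO and 89.4% of iCON Lypd1-high cells held 5 or more of its UMIs. The difference was far larger in *Xist* cells (-7.005) than in cells with Y-linked RNA (-1.10, 385 against 828 CPM). Of the glia list, *Mbp* (294 against 454 CPM) and *Pmp22* (654 against 985), both genes of myelin proteins, were at least 1.5-fold lower, and the median over the compared genes of the list was -0.59. *Cd302* (a C-type lectin receptor), *Jam3* (a junctional adhesion molecule) and *Cxx1c* were also at least 2-fold lower, at -1.11, -1.03 and -1.02. Each fell short of 2-fold in some divisions: *Cd302* was at -0.68 and *Cxx1c* at -0.89 in cells with Y-linked RNA, and *Jam3* at -0.81 in cells with high myelin RNA. Of the 15 lowest ratios, 14 were below 0 in the Calb2-high cells too, and 3 were past 2-fold there.

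**Figure D3:**
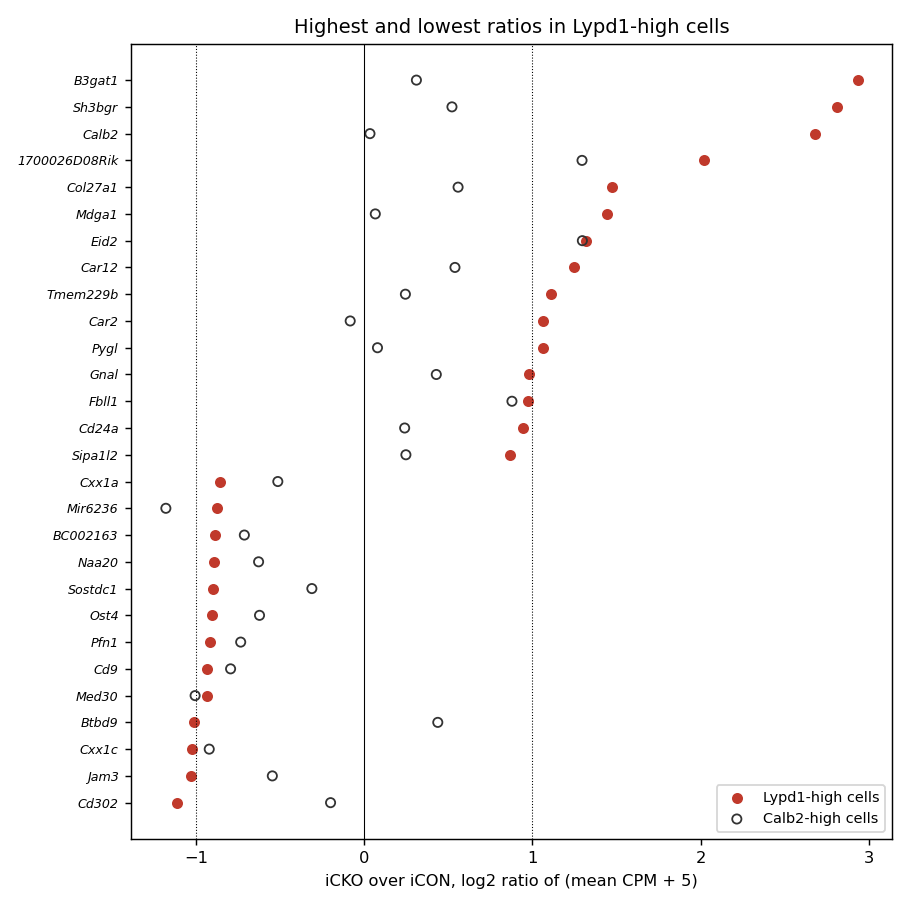
The highest and lowest log2 ratios of iCKO over iCON, on the log2(mean CPM + 5) scale (x axis), for the named genes (y axis) in Lypd1-high cells and, beside them, in Calb2-high cells. *Gm1821*, at -3.84, is left out so that the other genes can be read, and 1 further gene is not shown. The genes were chosen by the Lypd1-high ratio, and *1700026D08Rik* and *Eid2* are past 2-fold in the Calb2-high cells too (both 1.30).

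*Btbd9* and *Cd302* were the 2 genes among the 15 lowest that also marked control Lypd1-high over Calb2-high cells, with log2 differences of Calb2-high minus Lypd1-high cells of -3.04 and -1.18. *Btbd9* encodes a BTB-domain protein known from human genetics of restless legs. In the iCON Lypd1-high cells it ran from 33.0 through a median of 1200 to 2364 CPM, and in the iCKO Lypd1-high cells from 0 through 206 to 2032, with means of 1182 and 583 (-1.01). The ratio was -0.73 in cells with Y-linked RNA and -0.90 with a *Lypd1* threshold of 2000 CPM. The iCON Calb2-high cells had a mean of 139. The iCKO cells fell into a low and a high range, with few between: at a division of 500 CPM, chosen after the values were seen, 79 of the 126 (62.7%, interval 53.6 to 71.1) were below it, against 10 of the 180 iCON cells (5.56%, 2.70 to 9.98), and only 3 cells on each side lay between 300 and 800 CPM.

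The cells on the 2 sides of that division differed in other genes, while depth did not separate them (medians 34233 UMIs below and 33294 at or above 500 CPM). Of the 47 iCKO Lypd1-high cells with *Btbd9* at or above 500 CPM, the mean *B3gat1* was 16.4 CPM, against 129 in the 79 below it. *Calb2* was 1512 against 6712 CPM, *Mdga1* 293 against 751, *Sh3bgr* 74.8 against 224 and *1700026D08Rik* 21.1 against 106. *Grm8* (84.6 against 89.5) and *Pou4f1* (105 against 109) differed little between the sides, as did *Eid2* (58.8 against 51.5), while *Ntng1* (245 against 186) and *Slc17a6* (353 against 258) were higher on the high side. *Runx1* was 133 against 151 CPM. At or above the division were 36 of the 103 iCKO cells with *Xist* and 9 of the 20 with Y-linked RNA.

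On the high side, the iCKO means of some genes lay closer to those of the iCON cells and others did not. The 170 iCON Lypd1-high cells with *Btbd9* at or above 500 CPM had 617 CPM of *Calb2*, 5.26 of *B3gat1*, 193 of *Mdga1* and 18.1 of *Sh3bgr*, but also 17.7 of *Eid2* and 31.9 of *Fbll1*, against 58.8 and 76.4 in the 47 iCKO cells. The low side was not empty in iCON. Its 10 cells had means of 36.9 CPM of *B3gat1*, 504 of *Mdga1*, 48.3 of *Sh3bgr* and 42.1 of *1700026D08Rik* (12.9 in the other 170). Without the 1 called doublet among them, those means were 29.1, 487, 46.5 and 39.6 CPM. Their *Calb2* had a mean of 2821 CPM, or 1255 without that cell, but a median of 78.2 against 191 in the other 170. *Btbd9* (chr17:30215524-30576488, minus strand) and *Mdga1* (chr17:29827949-29970087, minus strand) are 0.245 Mb apart on GRCm38. Of the 5 genes other than *Btbd9* compared within 1 Mb of it, *Mdga1* alone passed 2-fold.

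The rule asked which genes approached the level of the iCON Calb2-high cells. Among 3772 genes compared between the control sets, leaving out *Lypd1* and *Calb2*, 35 were at least 2-fold higher in iCON Calb2-high than in iCON Lypd1-high cells (0.928%) and 60 were at least 2-fold lower (1.59%). For each, a position was computed on the log2(mean CPM + 5) scale, with 0 at the level of the iCON Lypd1-high cells and 1 at that of the iCON Calb2-high cells. Both differences share the iCON Lypd1-high cells, so chance deviation in that set moves them together. When the genes were chosen with every second iCON Lypd1-high cell and the positions read from the remaining ones, 13 of 43 Calb2-high genes had a position of at least 0.5, of which 10 were among the 11 described next.

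Of the 35 genes of the control Calb2-high cells, 11 had a position of at least 0.5 (31.4%), 13 lay between 0.2 and 0.5, 10 between -0.2 and 0.2, and 1 below -0.2. In cells with Y-linked RNA 6 of 50 reached 0.5 (12%), 5 of them among the 11, and after thinning 12 of 40 did, 8 of them among the 11. The median position was 0.38. The median log2 ratio of the 35 was 0.50, with 29 above 0, against a median of 0.01 over all genes compared. *Calb2* itself, left out of these counts, was at 0.56. Past 1, above the level of the iCON Calb2-high cells, was *Sh3bgr* at 1.40. *Car2* (0.81), *B3gat1* (0.80) and *Mdga1* (0.69) were near that level, with *Tmem229b* at 0.60 and *Pygl* at 0.56.

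The rest of the 11 were not among the 15 highest ratios, in the case of *Gnao1* (log2 ratio 1.12) because its level was under 50 CPM in both Lypd1-high sets. *Nr3c1*, the glucocorticoid receptor, had 41.97 against 21.7 CPM in the Lypd1-high cells and 52.1 in the iCON Calb2-high cells (position 0.74). *Ntm*, the adhesion molecule neurotrimin, was at 0.73 and *Hpcal1*, a neuronal calcium sensor of the visinin family, at 0.68. *Gnao1*, the alpha subunit of the inhibitory G protein Go, had 42.5 against 16.8 CPM (0.63), and *Apba2*, an adaptor of presynaptic complexes, had 67.1 against 43.0 (0.53). *Cd24a*, a small sialoglycoprotein of the cell surface, lay just under the limit at 0.498, with 513 against 264 CPM and 998 in the iCON Calb2-high cells. Its ratio was 1.18 in *Xist* cells and 0.24 in cells with Y-linked RNA.

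Other genes of the control Calb2-high cells, at positions between -0.2 and 0.2, stayed near the level of the Lypd1-high cells. *Zfp804a*, a zinc finger protein gene, had 180 against 151 CPM, with 564 in the iCON Calb2-high cells (position 0.13). *Tmem132c* was at 3.73 against 1.24 and 55.9 CPM (0.15), and *Upp1*, a uridine phosphorylase, at 7.66 against 9.82 and 58.6 (-0.11). At levels as low as those of *Tmem132c*, the position depends on the pseudocount of 5 CPM. *Palmd*, a gene of the paralemmin family, was at 9.05 against 13.02 and 62.7 CPM (-0.19). Between this group and the 11 genes lay *Rxrg*, the retinoid X receptor gamma and a marker of Ia neurons, with 5.89 against 0.776 and 63.2 CPM (0.26). Its UMIs were found in 16.7% of iCKO and 2.78% of iCON Lypd1-high cells and in 85.9% of iCON Calb2-high cells. *Cdk15* also lay there, at 0.28. The genes most specific to one control set were thus not all among those that approached it.

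The 60 genes of the control Lypd1-high cells mostly stayed nearer to the Lypd1-high than to the Calb2-high level. Their median position was 0.12, and 2 of them (3.33%) had a position of at least 0.5: *Cd302* at 0.94 and *Gldn*, which encodes gliomedin, a protein of the node of Ranvier, at 0.57 (133 against 241 CPM, with 83.8 in the iCON Calb2-high cells). Neither was among the genes at that position in cells with Y-linked RNA or with a *Calb2* threshold of 5000 CPM. Another 19 lay between 0.2 and 0.5, *Btbd9* among them at 0.33, and 39 between -0.2 and 0.2. The median log2 ratio of the 60 was -0.17, with 52 below 0, against 1845 of the 3791 genes compared. Most of the 60 were thus lower in iCKO, by small amounts. Besides *Grm8*, *Pou4f1* and *Ntng1*, the genes with the largest control difference that kept their level included *Slc17a6* (the vesicular glutamate transporter VGLUT2, 294 against 331 CPM, with 46.5 in the iCON Calb2-high cells), *Pcsk2* (a prohormone convertase, 161 against 173, with 18.7) and *Sphkap* (an anchor of protein kinase A, 151 against 156, with 17.5). *Ccdc109b*, which was not detected in any iCON Calb2-high cell, had 84.4 against 103 CPM.

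**Figure D4:**
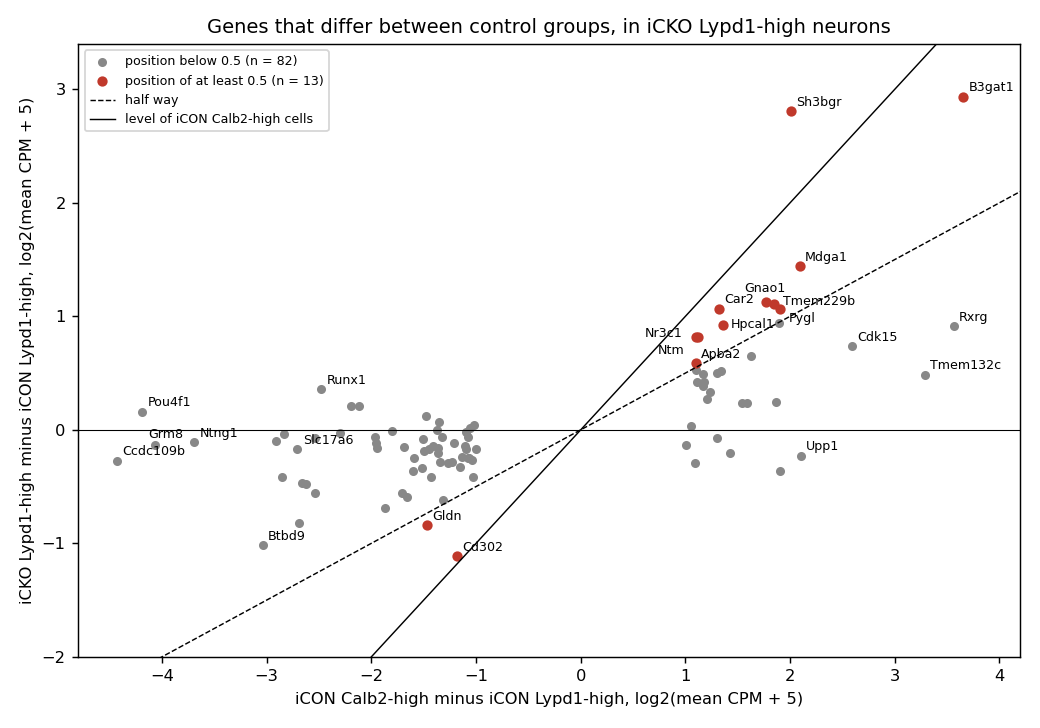
Each point is 1 of the 95 genes that differ at least 2-fold between the control sets, with that control difference on the x axis and the difference of iCKO minus iCON Lypd1-high cells on the y axis, both in log2(mean CPM + 5). The solid line is the level of the iCON Calb2-high cells and the dashed line a position of 0.5. Red points (13) are at or past it, 11 on the right and 2 on the left.

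Most of the cells held more RNA of the 35 genes than their control counterparts. The summed level of the 35 genes ran from 1436 through a median of 3368 to 5949 CPM in the iCKO Lypd1-high cells, from 1043 through 1846 to 4779 in the iCON Lypd1-high cells and from 3709 through 6242 to 9311 in the iCON Calb2-high cells. Of the 126 cells, 87 (69.0%) lay above 2846 CPM, the 95th percentile of the iCON Lypd1-high cells. The sum of the 60 genes had a median of 8650 CPM, against 11172 in the iCON Lypd1-high and 3056 in the iCON Calb2-high cells. Only 52 of the 126 cells (41.3%) lay above 8950 CPM, the 5th percentile of the iCON Lypd1-high cells for this sum. After thinning, the median cell held 21 of the 35 genes in iCKO and 17 in iCON, and 47 and 49.5 of the 60. The iCKO Lypd1-high cells thus held more summed RNA of the 35 genes and less of the 60, of which the median cell still held 47. The 139 iCON cells outside both control sets, with low *Lypd1* and intermediate *Calb2*, had medians of 3311 CPM for the 35 genes and 7531 for the 60. A place between the iCON Lypd1-high and iCON Calb2-high cells on these sums was therefore not particular to the iCKO cells. Abundant genes weigh more in these sums, *Mdga1* and *Cd24a* among the 35 and *Btbd9* among the 60. Positions between -0.2 and 0.2 were held by 10 of the 35 genes and 39 of the 60.

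**Figure D5:**
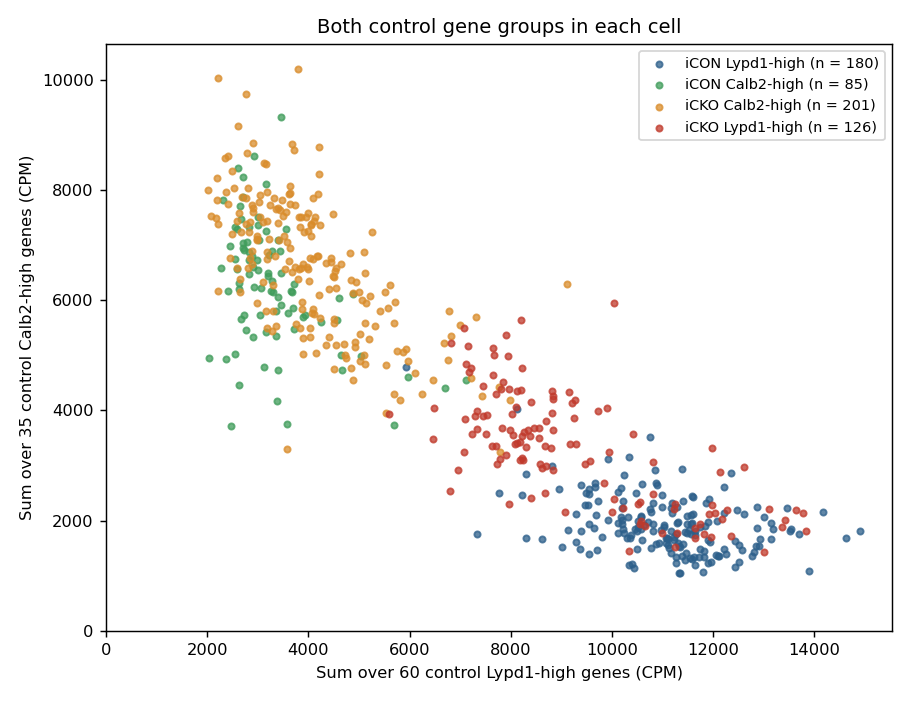
For each cell, the summed level in CPM of the 60 control Lypd1-high genes (x axis) and of the 35 control Calb2-high genes (y axis), coloured by cell set. The iCKO Lypd1-high cells, with medians of 8650 and 3368 CPM, lie between the iCON Lypd1-high cells (11172 and 1846) and the iCON Calb2-high cells (3056 and 6242). The medians of the 139 iCON cells outside both control sets, with low *Lypd1* and intermediate *Calb2*, also lie between them (7531 and 3311).

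Over the 126 cells, *Calb2* moved with some of these genes and not with others. Its Spearman correlation was 0.75 with the sum of the 35 genes, -0.77 with that of the 60, 0.75 with *Cd24a*, 0.56 with *Mdga1*, 0.55 with *B3gat1* and 0.44 with *Sh3bgr*. It was -0.61 with *Btbd9* and -0.62 with *Lypd1*, but -0.10 with *Grm8*, -0.00 with *Pou4f1* and -0.18 with *Ntng1*. In the 63 cells above the median of *Calb2*, *Slc17a6* had a mean of 253 CPM and *Ntng1* 192, against 334 and 224 in the other 63. These are descriptions over cells of 1 library that share its depth (*Calb2* against depth was 0.24). Over the 180 iCON Lypd1-high cells several had the same sign: 0.42 with the sum of the 35 genes, -0.42 with that of the 60, 0.47 with *Cd24a*, 0.29 with *B3gat1* and -0.38 with *Lypd1*. The values there were 0.02 for *Mdga1*, 0.01 for *Sh3bgr*, -0.10 for *Btbd9*, -0.19 for *Grm8* and -0.20 for *Pou4f1*.

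Control cells in the same range of *Calb2* were unlike the iCKO cells in some of the other genes and close to them in others. This comparison was chosen after the values were seen. The 82 iCKO Lypd1-high cells with *Calb2* between 1000 and 10000 CPM had a mean of 97.9 CPM of *B3gat1*, 183 of *Sh3bgr*, 623 of *Mdga1* and 448 of *Btbd9*. The 39 iCON Lypd1-high cells in the same range had 15.3, 16.1, 207 and 1164 CPM, though their mean *Calb2* was lower, 2316 against 4952 CPM. The 139 iCON cells with *Lypd1* below 100 CPM and *Calb2* in that range, whose mean *Calb2* was 4945 CPM, had 54.2 CPM of *B3gat1*, 21.9 of *Sh3bgr*, 242 of *Mdga1* and 1122 of *Btbd9*. In *Mdga1*, *Sh3bgr* and *Btbd9* the iCKO cells were thus unlike both sets of control cells with *Calb2* in this range. In other genes the 82 iCKO cells were close to the 139 iCON cells: *Ntm* (96.1 against 90.0 CPM), *Apba2* (70.1 against 66.5) and *Cd24a* (550 against 587). The mean sum of the 35 Calb2-high genes was 3466 against 3383 CPM. The other genes of the 11 at a position of at least 0.5 were higher in the iCKO cells, such as *Nr3c1* (47.8 against 21.8) and *Car2* (52.7 against 23.5).

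Markers of the other subtypes and cell types were examined in the same cells. *Calb1*, the Ib marker, lay under the level set for the comparison, with 49.3 CPM in iCKO and 6.59 in iCON Lypd1-high cells (log2 ratio 2.23). A *Calb1* UMI was found in 58 of the 126 and 27 of the 180 cells, and the gene was higher still in the iCKO Calb2-high cells, at 136 against 9.49 CPM in their iCON counterparts. *Pcdh20*, an Ia marker, had 11.5 against 1.49 CPM. The 6 type II markers summed to a median of 32.5 CPM in the iCKO and 24.1 in the iCON Lypd1-high cells, and 35 of the 126 and 43 of the 180 cells held none of them. Most of that sum was *Gata3*, at 36.1 against 29.6 CPM. *Th* was at 0 in every cell of the 4 sets and *Prph* was at 0.642 against 0.116 CPM. The 2 listed myeloid genes were at 0 in every cell, and 125 of the 126 cells held no UMI of the endothelial gene. Hair cell genes were at 0 in 87.3% of the 126 and 93.9% of the 180 cells.

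Groups of genes with a function in excitability and transmission are given beside the share over all genes compared, of which 1946 of 3791 had a ratio above 0 and 1.19% were at least 1.5-fold higher. Of 12 potassium channel genes compared, 10 had a ratio above 0, with a median log2 ratio of 0.18, and *Kcns3*, a modulatory subunit, alone passed 1.5-fold (68.3 against 41.5 CPM). Of 10 sodium, HCN and calcium channel genes, the median was 0.25, and *Hcn2*, a channel of the hyperpolarization-activated current, was past it (240 against 146 CPM, 0.70). *Hcn2* ran from 31.8 through 241 to 512 CPM over the iCKO cells and from 0 through 139 to 411 over the iCON cells. Among 24 genes of the release machinery the median was 0.13, and *Syngr1*, a synaptic vesicle protein, alone passed 1.5-fold (0.79). Among 9 transmitter receptor genes and 24 transcription regulators none passed it, with medians of 0.01 and 0.16.

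Calcium-binding and structural genes complete the account. Of 10 EF-hand genes, *Calb2* and *Cabp1* (a regulator of calcium channels, 452 against 290 CPM, 0.63) passed 1.5-fold upward, and the lowest was *Kcnip2*, a potassium channel partner, at -0.56. *Nefh*, the heavy neurofilament subunit, ran from 2928 through 6627 to 9617 CPM in iCKO and from 1550 through 4012 to 6506 in iCON (0.71). Its ratio was 0.43 in the Calb2-high cells. Of 21 adhesion and guidance genes *Mdga1* alone passed either fold, and of 12 genes of peptide, growth factor and G protein signalling *Gnal*, a stimulatory G protein subunit, alone passed 1.5-fold (77.2 against 36.7 CPM, 0.98), with 1.16 in *Xist* cells and 0.29 in cells with Y-linked RNA.

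Promoter windows show the sequence at the start of genes that approached the Calb2-high level and of 1 that did not. They were taken from RefSeq (GRCm38.p6) and run from 250 bases before to 50 bases after a start. *Calb2* and *Sh3bgr* had no entry in the set of windows used here. The core letters bound by RUNX proteins were searched on both strands as TGTGGT and TGCGGT, whose reverse complements are ACCACA and ACCGCA, and matches are in capitals. *B3gat1* and *Mdga1* had no match, while *Tmem229b* and *Zfp804a* had 1 each in the window shown.
B3gat1: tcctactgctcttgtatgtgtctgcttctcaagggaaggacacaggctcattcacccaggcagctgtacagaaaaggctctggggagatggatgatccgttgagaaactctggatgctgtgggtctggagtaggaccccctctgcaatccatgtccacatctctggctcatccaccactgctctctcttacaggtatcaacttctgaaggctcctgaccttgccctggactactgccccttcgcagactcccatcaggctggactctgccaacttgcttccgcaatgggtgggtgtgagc
Mdga1: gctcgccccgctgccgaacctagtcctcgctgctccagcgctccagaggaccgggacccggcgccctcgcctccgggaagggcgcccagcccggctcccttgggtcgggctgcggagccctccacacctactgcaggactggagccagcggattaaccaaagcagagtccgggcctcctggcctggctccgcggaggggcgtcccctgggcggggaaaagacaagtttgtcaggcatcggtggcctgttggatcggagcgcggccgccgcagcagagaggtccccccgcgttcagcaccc
Tmem229b: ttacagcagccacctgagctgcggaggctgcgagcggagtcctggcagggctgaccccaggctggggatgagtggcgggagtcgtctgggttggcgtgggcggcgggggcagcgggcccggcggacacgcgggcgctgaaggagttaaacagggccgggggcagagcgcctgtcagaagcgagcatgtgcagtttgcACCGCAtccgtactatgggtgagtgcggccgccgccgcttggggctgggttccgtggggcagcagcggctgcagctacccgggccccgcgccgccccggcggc
Zfp804a: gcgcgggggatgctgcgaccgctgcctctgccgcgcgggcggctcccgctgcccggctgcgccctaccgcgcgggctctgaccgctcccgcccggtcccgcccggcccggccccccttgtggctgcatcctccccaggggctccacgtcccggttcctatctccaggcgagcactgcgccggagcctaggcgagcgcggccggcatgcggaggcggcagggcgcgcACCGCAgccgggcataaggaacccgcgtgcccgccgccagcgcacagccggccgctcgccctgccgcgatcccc
The windows are, in that order, chr9:26751312-26751611 (plus strand), chr17:29887833-29888132 (minus strand), chr12:79007228-79007527 (minus strand) and chr2:82053408-82053707 (plus strand). Such a match was found in 6764 of the 27025 genes with a window and in 23.9% of 2916 genes among those compared. It was found in 1 of 8 genes with an entry among *Calb2* and the 11 genes at a position of at least 0.5, in 5 of 7 Calb2-high genes at a position between -0.2 and 0.2 (12 and 10 genes in all), and in 11 of 51 of the 60 Lypd1-high genes. Genes with several windows have more chances of a match. A match is a description of letters in a window and not a binding site.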

How the data were processed

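Single-cell RNA was measured in 2 libraries, and cells were assigned to them by the deposited text label of each barcode. The deposited values are the natural log of 1 plus CPM, a unit settled from the values: linear values sum to 1e+06 in each cell, and 100% of nonzero values lay within 0.001 of whole UMIs, which were recovered by cell. Cell Ranger, Seurat and the build mm10 are named in the submitters' processing notes, with no versions or settings. The table holds 14425 genes and no mitochondrial series. UMI counts and CPM cover these genes only. Each column had a library.

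The level of a gene was its mean CPM over the cells of a set. Ratios are log2 with a pseudocount of 5 CPM. Genes needed a mean of 50 CPM and a UMI in 25% of cells in either set, and *Lypd1* and sex-linked genes were left out. Intervals are exact (95%, Clopper-Pearson, or a binomial division of summed UMIs) and cover counting error only. For shares, cells were thinned to 20000 UMIs, which left out 1 iCKO and 2 iCON Lypd1-high cells. Scrublet in scanpy 1.11.5 called 4 iCKO and 1 iCON cells as doublets, which were kept. No cells were clustered.

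The named genes were the marker lists, the 15 highest and 15 lowest ratios, up to 12 genes in each direction at a position of at least 0.5, 8 in each direction between -0.2 and 0.2, and list genes past 2-fold. List genes named past 1.5-fold or as the lowest or highest of a list, *Cdk15* and the divisions by *Btbd9* and by *Calb2* were chosen after the values were seen. The members and gene lists were chosen with earlier results of these data known. Python 3.11.15, numpy 2.4.6, pandas 2.3.3, scipy 1.17.1 and matplotlib 3.10.9 were used. Genes were placed with GENCODE M21 (GRCm38), which matched 97.1% of those compared. The ratio step alone was run on simulated Poisson counts. These held no library effect and no variation between cells beyond depth and counting, and the positions were not covered. Alternatives changed the *Lypd1* and *Calb2* thresholds, the level, pseudocount, minimum and depth, the doublets, the control cells, and the cells by sex-linked or myelin RNA. Some genes of the lists and of the lowest ratios are not reported here.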

Additional observations from a re-analysis of the deposited data

Results flagged for a closer look

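In 4 genes, cells with *Xist* and cells with Y-linked RNA gave ratios of opposite direction in the Lypd1-high cells, with counting intervals on opposite sides of 0. The log2 ratios of iCKO over iCON were -0.23 (*Xist* cells) and 0.34 (Y-linked cells) for *Jun*, an immediate early gene that also responds to dissociation. They were -1.33 and 0.35 for the gene listed as *Mir6236*, and -0.20 and 0.33 for *Rbfox3*, a splicing factor of neurons. For the reporter tdTomato, listed as Tomato, they were 0.34 and -0.18. The differences between the kinds of cells were not tested, and the intervals cover counting error only. The Y-linked cells numbered 20 in iCKO and 79 in iCON.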

How the results depend on the processing

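No paired analysis was possible because each genotype has 1 library and the labels give no replicate numbers. No value past 2-fold changed direction under any alternative that was run, while *Mir6236* (-0.88) was at 0.35 in Y-linked cells. The *Calb2* log2 ratio was 2.62 with a *Lypd1* threshold of 2000 CPM, 2.53 from summed UMIs, 2.82 and 2.16 in *Xist* and Y-linked cells, 2.77 and 2.26 in cells of high and low myelin RNA, and 2.87 without called doublets, where 1 iCON cell was removed. Its excess over the ratio in cells with *Lypd1* below 100 CPM (1.81) was 2.65 with Calb2-high cells in place of those (whose *Calb2* the threshold fixes, so this restates the ratio), and 1.96 and 1.47 in *Xist* and Y-linked cells. Genes at least 2-fold higher (11) numbered 6 with a pseudocount of 20 CPM, 19 with a minimum of 20 CPM in 10% of cells, 4 with 100 CPM in 50%, and 20 in low-myelin cells. Genes at least 2-fold lower (6) numbered 2 with the pseudocount of 20, 11 and 15 in *Xist* and Y-linked cells, and 3 and 11 in high-myelin and low-myelin cells. Calb2-high genes at a position of at least 0.5 (11 of 35) numbered 6 of 24 with the pseudocount of 20, 20 of 74 and 5 of 17 with the lower and higher minimum, 17 of 35 and 6 of 50 in *Xist* and Y-linked cells, and 6 of 22 with a *Calb2* threshold of 5000 CPM. Lypd1-high genes there (2 of 60) numbered 5 of 61 from summed UMIs, 1 of 45, 7 of 127 and 1 of 30 with the pseudocount and minima above, 5 of 66 and 4 of 88 in *Xist* and Y-linked cells, 9 of 91 in low-myelin cells, 4 of 68 with a *Calb2* threshold of 15000 CPM and 4 of 67 with control cells divided. A changed pseudocount or minimum changes which genes can be counted. For the other settings the cause was not tested. The 15 highest ratios were above 0 in each of the 13 settings, and of the 15 lowest 14 were below 0 in Y-linked cells and 13 in low-myelin cells, where *Cd9* and *Sostdc1* were at 0 in both sets. Depth limits genes near a few UMIs per cell, such as *Rxrg*.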
